A study of Mus musculus with 11 samples.

Results

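Interferon-stimulated genes (ISGs) were followed in macs of 5 mouse tissues, in WT cells and in cells lacking the transcription factor ZEB2 (Zeb2KO). The genes were taken from a list of 45 named ISGs, of which 44 were found among the 27998 genes of the count tables and Mx2 was not. The 44 genes fell into 7 groups by what their products do. The first group held 17 IFIT and other general ISGs, and the second 7 members of the OAS and Mx families. Smaller groups were 4 nucleic acid sensors (Ifih1, Ddx58, Dhx58 and Zbp1), 4 factors of the signal itself (Irf7, Irf9, Stat2 and Usp18) and 4 IFITM genes. The last were 7 interferon-inducible GTPases and the chemokine Cxcl10.

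Sorted macs were sequenced as single cells on the 10x Genomics droplet platform, in which a unique molecular identifier (UMI) counts each captured 3′ end of an mRNA once. Of the 11 libraries, 10 formed WT and Zeb2KO pairs of microglia (brain), colon macs (CMs), Kupffer cells (KCs, liver), alveolar macs (AMs, lung) and splenic macs (SMs). WT libraries came from CRE-negative Zeb2fl/fl littermates on a C57Bl/6 background. The remaining library, CRE-negative Nr1h3fl/fl KCs, served as a second WT liver library. Mice of both sexes were used, and all carried loxP-flanked alleles, of Zeb2 or, in the last library, of Nr1h3. Where no other age is stated, the methods put mice at 6 to 8 weeks. The number of mice behind each library is not given in the sources used here.

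For the 5 Zeb2KO libraries the labels give Fcgr1-crexZeb2fl/fl as the genotype, whereas the methods of the study name the Clec4f-cre strain for KCs and the Itgax-cre strain for AMs. Which CRE applies was not settled, so these libraries are called Zeb2KO. Fcgr1-cre is described with these mice as also targeting other immune cells, and some macs of CRE-positive mice as keeping a functional Zeb2 allele in every organ but brain, so the Zeb2KO libraries other than microglia may be mixtures. The methods sorted CMs and SMs as SiglecF-negative and KCs as Clec4F-positive, whereas the study reports higher Siglecf in CMs and SMs lacking ZEB2. Such gates may have changed which cells entered each library, and their part in the results was not tested. Zeb2 UMIs were higher in all 5 Zeb2KO libraries than in their WT partners (from 475 to 1747 per 1000000 UMIs in microglia), and 3′ UMIs cannot check a deletion of an internal exon.

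Interferons are cytokines released when cells sense nucleic acids of viruses or, in some settings, their own. Type I interferons bind the receptor pair IFNAR1 and IFNAR2, whose kinases activate transcription factors that act with IRF9 on a DNA element called the interferon-stimulated response element (ISRE). Interferon gamma acts through another DNA element, called GAS. Tissue macs both sense nucleic acids and respond to interferon, and many ISGs also have a basal level without infection.

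To show the element itself, the promoter windows of RefSeq (build GRCm38.p6, 250 bases before to 50 bases after a gene start) were searched on both strands for the ISRE core GAAANNGAAA, which reads TTTCNNTTTC on the opposite strand. Of the 44 genes, 35 had a promoter in the table, and 21 of these 35 (60.0%) held the core, against 3.99% of all 27025 genes with a promoter. The shorter GAS letters TTCNNNGAA were present in 9 of 35 members (25.7%) and in 9.55% of all genes. The following windows of 30 bases are shown for members whose levels are described below, with all bases of the core in capitals and written 5′ to 3′ on the strand of the gene.
Isg15: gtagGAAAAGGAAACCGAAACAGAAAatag
Igtp: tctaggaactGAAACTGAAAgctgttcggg
Oas3: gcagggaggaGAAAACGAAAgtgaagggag
Oas1a: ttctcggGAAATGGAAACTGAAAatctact
Irgm1: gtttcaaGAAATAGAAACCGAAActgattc
Ifit3: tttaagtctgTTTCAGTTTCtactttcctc
Gbp3: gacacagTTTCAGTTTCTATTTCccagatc
Gbp7: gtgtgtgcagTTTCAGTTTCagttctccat
The Isg15 window (chr4:156200871-156200900, minus strand) held 3 overlapping cores between bases -78 and -57 from the start. The Igtp window lay at chr11:58199512-58199541 (plus), the Oas3 window at chr5:120777715-120777744 (minus) and the Oas1a window at chr5:120907523-120907552 (minus). The Irgm1 window lay at chr11:48871428-48871457 (minus), the Ifit3 window at chr19:34583397-34583426 (plus), the Gbp3 window at chr3:142559992-142560021 (plus) and the Gbp7 window at chr3:142530273-142530302 (plus). In these 8 windows the core lies before the RefSeq start of the gene. The GENCODE start of Irgm1 lies farther upstream, so its window falls inside the gene as GENCODE draws it. Ifit3b carries the same 30 bases as Ifit3 at chr19:34607793-34607822, and Oas1g the same as Oas1a at chr5:120887609-120887638. Shared promoter bases do not show how reads of the mRNAs were assigned. For such close relatives the assignment of reads was not checked, so their single values are uncertain. The same caution holds for IFITM and GBP genes. A match of letters is a description and shows no binding.

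Library depth ranged from 11133411 UMIs (SM WT) to 47400786 UMIs (CM WT). After removal of low-quality cells (4.66% to 9.22% of barcodes) and of clusters of other cell types (from 0 in brain to 21.5% of cells in SM WT), 2830 to 6974 macs per library remained. Their UMIs were summed per library and scaled to a common total, as counts per 1000000 UMIs (CPM). The markers of each tissue's macs were highest in that tissue, but fell from 28275 to 17363 CPM in Zeb2KO microglia and from 13234 to 5513 CPM in Zeb2KO KCs, and the general macrophage markers summed to only 692 and 946 CPM in the AM libraries. Neutrophil markers summed to 25.6 CPM in AM WT and to 23733 in AM Zeb2KO. Libraries shared at most 76 cell barcodes, and at most 1.45% of the smaller library. In such summed data, more responding cells and more RNA per responding cell cannot be told apart.

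In WT macs the ISG level differed widely between the tissue libraries. Summed over the 44 members it was 10851 CPM in KCs, 3946 in CMs, 2686 in SMs, 867 in microglia and 453 in AMs. The second WT liver library stood at 11318 CPM, within 1.04-fold of the first, so each step of this order was larger than the gap between the 2 WT liver libraries. With 1 library per tissue there is no test of the order. The methods name a NextSeq sequencer for KCs and AMs and a HiSeq for microglia, SMs and CMs. Liver was also digested otherwise than lung, brain and spleen. KCs and AMs thus shared a sequencer, as did microglia, SMs and CMs, and lung, brain and spleen shared a digestion. Between tissues that differ in sequencer or digestion, these cannot be told apart from tissue, and the 2 liver libraries do not measure their part. Of the 41 members that reached 20 CPM in a WT library, 31 were highest in KCs, 7 in SMs, 2 in CMs and 1 in microglia, whereas 29 were lowest in AMs and 10 in microglia.

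The abundant members showed the same tissue pattern with exceptions. Ifitm3, which restricts viral entry at membranes, was listed at 3459 CPM in KC WT, 730 in CM WT, 379 in SM WT, 33.3 in microglia WT and 8.85 in AM WT. Ifi27l2a stood at 2227 CPM in KCs, 587 in CMs, 566 in SMs, 37.1 in microglia and 34.7 in AMs, so CMs and SMs were close, as were microglia and AMs. Bst2, which tethers virions to the cell, ranged only from 66.4 CPM in AMs to 703 in KCs. Exceptions to the KC maximum were Ifitm2 (1316 CPM in CMs against 965 in KCs), Trim30a (275 in SMs against 223) and Cxcl10, a T cell attractant (172 CPM in SMs against 66.8 in KCs and 17.0 in AMs). For Trim30a the order is not firm, since the second WT liver library stood at 345 CPM.

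**Figure D1:**
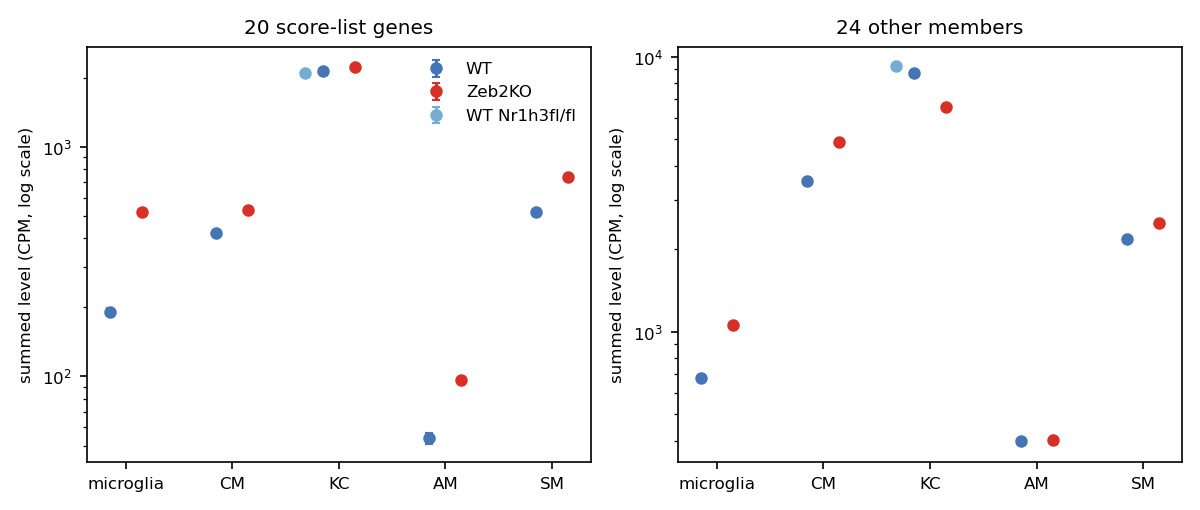
Summed level of 20 ISGs used for a cell score (left) and of the other 24 members (right), in CPM on a log axis, with 1 point per library and exact Poisson intervals of 95%, which are mostly smaller than the points. KC libraries stand highest, AM libraries lowest, and microglia show the widest gap between WT and Zeb2KO on both sides.

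The comparison of each Zeb2KO library with its WT partner asks whether loss of ZEB2 changes the ISG level in that tissue. Since each side is 1 library, there is no test within a tissue. The summed level of all members went from 867 to 1575 CPM in microglia (log2 ratio 0.86), from 3946 to 5410 in CMs (0.46) and from 10851 to 8815 in KCs (-0.30). AMs stood at 453 and 499 CPM (0.14) and SMs at 2686 and 3215 (0.26). Without 1 cluster in the SM libraries, of unsettled cell type and led by S100a8 and S100a9, the SM levels were 2679 and 2796 CPM (0.06). The 2 WT liver libraries differed by 0.06. The KC value is set by a few abundant genes, because a smaller list of 20 ISGs without the IFITM genes (the score list, given with the cell scores) changed by 0.07 in KCs and by 1.45 in microglia, 0.35 in CMs, 0.84 in AMs and 0.51 in SMs. Without the same cluster the score list was at 521 and 513 CPM in SMs (-0.02).

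For single genes, the log2 ratio of (CPM + 1) was taken, which understates changes of low genes, and a gene was called when it changed by at least 1 (2-fold) and stood at 20 CPM or more on the higher side. All genes were treated alike, and the share of them called gives the background. In the WT liver pair 0 of 42 members that reached 20 CPM were called in either direction, against 0.505% of all genes called higher and 0.848% called lower in the Nr1h3fl/fl library. The largest member difference there was 0.74 (Ifit1), and the median size was 0.25 for members and 0.26 for all genes.

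**Figure D2:**
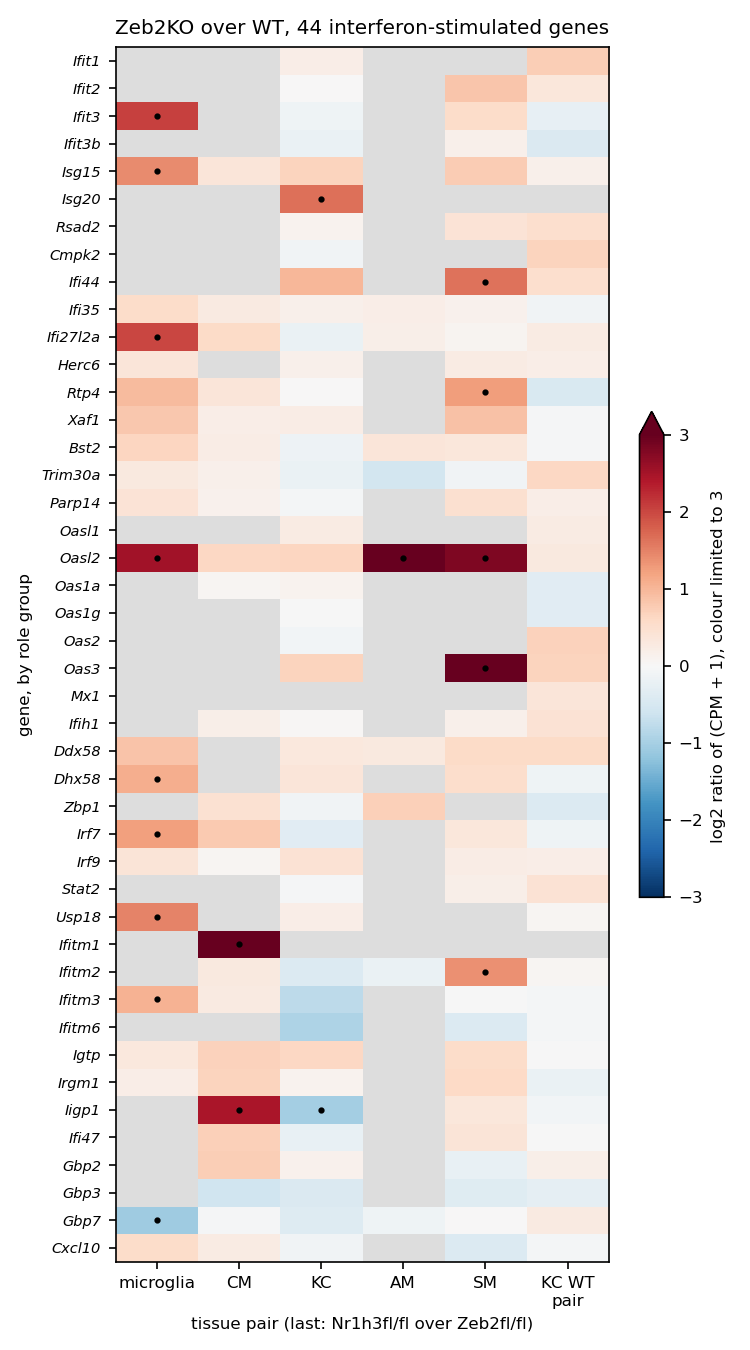
Log2 ratio of (CPM + 1) for the 44 ISGs (rows, ordered by role) in the 5 tissue pairs and between the 2 WT liver libraries (columns). Colour runs from blue (lower in Zeb2KO) to red (higher), grey marks members under 20 CPM in both libraries and dots mark called members: 9 in microglia, 2 each in CMs and KCs, 1 in AMs, 5 in SMs and 0 in the WT pair.

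Microglia had the most ISGs called higher in Zeb2KO. In the same pair neutrophil markers summed to 1.22 and 97.7 CPM, monocyte markers to 6.49 and 44 and the CM list to 3202 and 9955. Of the 97.7 CPM, 96.2 were Cxcr2, with 6 of 8 neutrophil markers at 0, and of the 44 CPM, 36.0 were Plac8. On the CM list Cx3cr1 went from 2923 to 926 CPM, and Cd74 from 193 to 6915. H2-Aa went from 28.9 to 972 CPM and H2-Ab1 from 46.9 to 1132. Ccl8, Cd163, Pf4 and Mrc1 stood at 8.33 CPM or less in both libraries. The part of these markers in the result was not tested. Of the 21 members at 20 CPM or more, 20 had a positive ratio and 8 (38.1%) were called higher, against 4.27% of all 5922 genes, and 1 was called lower, against 4.07%. The median ratio was 0.81 for members and -0.09 for all genes. Of the 21 members 7 reached 20 CPM in Zeb2KO alone and so had to be positive, and 5 of the 8 calls were among them. Of the 14 that reached it in both libraries 13 were positive and 3 (Isg15, Ifi27l2a and Ifitm3) were called higher, against 2.12% of all genes held to the same limit, with medians of 0.56 and -0.08. Called higher under the main rule were the antiviral effectors Ifit3, Isg15, Ifi27l2a, Oasl2 and Ifitm3, the sensor Dhx58, the transcription factor Irf7 and the feedback inhibitor Usp18.

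Oasl2, an OAS-like protein, rose from 7.54 to 47.8 CPM (2.51), Ifit3 from 11.7 to 51.2 (2.04) and Ifi27l2a from 37.1 to 152 (2.0). Isg15, a ubiquitin-like modifier, rose from 22.7 to 62.6 CPM (1.42), and its protease Usp18 from 6.73 to 20.7 (1.49). Irf7 rose from 8.51 to 21.4 CPM (1.23), Ifitm3 from 33.3 to 69.6 (1.04) and Dhx58 from 11.8 to 26.3 (1.10). Of these 8, Isg15, Usp18 and Dhx58 are named because they were called, after their values were seen.

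Some members under 20 CPM, to which the call does not apply, had large ratios. Oas3, which makes the activator of RNase L, had 0 UMIs in microglia WT and 12.3 CPM in Zeb2KO, at least 50.8-fold higher when 3 counts are taken as the floor of the WT library. On the same floor Ifitm1 was at least 32.8-fold higher (0 UMIs against 7.98 CPM) and Ifi44 at least 12.1-fold higher (0 UMIs against 2.95 CPM). Ifitm1 came from few cells: 24 of 3243 held its UMIs, and 1 of these held 70 of 135.

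The GTPases at 20 CPM or more showed no common rise in microglia. Gbp7, a guanylate-binding protein, fell from 46.2 to 21.4 CPM (-1.07), and Gbp3 went from 15.8 to 7.74 CPM (-0.94, under 20 CPM). Irgm1 (27.0 and 30.9 CPM, 0.19) and Igtp (40.8 and 51.2, 0.32) differed little. Gbp7 was no longer called under TMM scaling, which raised all microglial ratios by 0.08.

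A cluster of 8 WT and 31 Zeb2KO cells, led by Ifit1bl1 and Rsad2, carried much of the RNA of some genes. These 31 cells (0.956% of the library) had a score list level of 16370 CPM against 376 in the rest. Without the cluster 6 members were still called higher and 1 lower (4.22% and 4.10% of all genes). Oasl2 kept a ratio of 2.75, while Irf7 (1.07) and Usp18 (1.26) stayed above 1 but under 20 CPM. Cxcl10 went from a ratio of 0.56 to -0.02.

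In CMs 23 of 25 members had a positive ratio, with a median of 0.29 against 0.05 for all genes. Of the 25, 5 reached 20 CPM in Zeb2KO alone and so had to be positive, Iigp1 and Irf7 among them. Of the 20 that reached it in both libraries 18 were positive, with a median of 0.27 against 0.05 for all genes. Only Ifitm1 and Iigp1 were called higher (8.0% of members against 1.08% of all 5115 genes) and 0 were called lower (0.489%). Ifitm1 stood at 63.7 CPM in WT and 530 in Zeb2KO (3.04), and Iigp1, an immunity-related GTPase, at 6.10 and 37.7 (2.45). Among members at 20 CPM or more, Irf7 came next with 16.4 and 28.9 CPM (0.78), ahead of the GTPase genes Gbp2 with 33.5 and 56.7 (0.74), Ifi47 with 21.6 and 35.8 (0.71) and Igtp with 18.0 and 29.7 (0.69). Lowest was Gbp3 with 73.2 and 48.3 CPM (-0.59), while Gbp7 (64.3 and 62.6) and Irf9 (32.4 and 33.7) were nearly equal.

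Each of the 2 CM calls was lost without a different cluster of cells. A cluster led by Hp and Mmp8 held 18.5% of Zeb2KO cells and 22 WT cells, and had 2337 CPM of Ifitm1 against 117 in the other Zeb2KO cells. Without it Ifitm1 had a ratio of 0.89, and Iigp1 alone was called (0.583% of all genes higher). Its neutrophil markers summed to 47.9 CPM and its monocyte markers to 690, against 4.26 and 95.7 in the rest, while general macrophage markers summed to 9519 and 18032. Their part in the result was not tested. A second cluster of 92 Zeb2KO and 11 WT cells, led by Iigp1 and Cxcl9, had 960 CPM of Iigp1. Without it Iigp1 stood at 4.59 and 17.3 CPM (1.71), under the floor of 20, and Ifitm1 alone was called (1.12% of all genes higher).

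In KCs, where ISGs were most abundant, members were spread evenly around 0. Of 42 members 22 were positive, and the median was 0.01 against 0.02 for all genes. Isg20 and Ifi44 reached 20 CPM in Zeb2KO alone, and of the 40 members that reached it in both libraries 20 were positive. Called were Isg20 as higher (1 member of 42, against 3.36% of all 5390 genes) and Iigp1 as lower (1 of 42, against 1.15%), so the share of members called was near the background in both directions. Isg20, an RNA exonuclease, stood at 6.66 CPM in KC WT, 7.55 in the Nr1h3fl/fl library and 23.1 in Zeb2KO (1.65 and 1.49 against the 2 WT libraries).

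Some KC members moved in a small but separate range. Oas3 stood at 53.3 CPM in WT and 85.2 in Zeb2KO (0.67), but the Nr1h3fl/fl library was at 85.3, so the 2 WT libraries differed as much. Ifi44 stood at 18.7, 26.7 and 38.2 CPM in WT, Nr1h3fl/fl and Zeb2KO, and Oasl2 at 97.2, 119 and 153. Isg15, at 163 and 180 CPM in the WT libraries, reached 257 in Zeb2KO (0.66 and 0.51). Igtp was at 38.8 and 38.3 in the WT libraries and at 60.4 CPM in Zeb2KO (0.62 and 0.64), beyond the gap between the WT libraries.

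None of the 4 IFITM genes was called in KCs. Ifitm2, Ifitm3 and Ifitm6 had a lower level in Zeb2KO than in both WT libraries, with ratios short of the limit. Ifitm3 stood at 3459 and 3340 CPM in the WT libraries and at 1996 in Zeb2KO (-0.79 and -0.74), and Ifitm6 at 99.8, 95.8 and 52.5 (-0.91 and -0.85). Ifitm2 was at 965, 1013 and 727 CPM (-0.41 and -0.48). Ifitm1, under the floor, was at 4.93, 5.48 and 4.72 CPM (-0.05), with overlapping counting intervals. Iigp1 was at 92.5 and 86.9 in the WT libraries and at 44.9 in Zeb2KO (-1.03), and with the Nr1h3fl/fl library as WT it was -0.94 and not called. With that library as WT, 1 of 43 members was called higher (Isg20, against 4.20% of all genes) and 0 lower (against 3.92%).

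AMs had few ISG UMIs, so 9 of 44 members reached 20 CPM. Of these 9, 3 (Oasl2, Ddx58 and Zbp1) reached it in Zeb2KO alone and 1 in WT alone. Oasl2 was the 1 called member (higher, against 4.35% of all 5812 genes, and 0 lower against 7.33%). It rose from 3 UMIs in WT (0.109 CPM) to 783 UMIs in Zeb2KO (21 CPM), a ratio of 192 with a counting interval of 65.5 to 934. The UMIs lay in 3 of 6974 WT cells and in 579 of 6252 Zeb2KO cells. In the same pair the monocyte list summed to 6087 and 20797 CPM, of which Chil3, also on the AM list, made up 5761 and 20630, and without it the sums were 327 and 167. The neutrophil list summed to 25.6 and 23733 CPM, in Zeb2KO mostly S100a8 (14194) and S100a9 (9361), with Mmp9, Camp and Ngp at 0. The part of these markers in the result was not tested. Of the 5 members that reached 20 CPM in both libraries 3 were positive and 0 were called, with a median of 0.17 against -0.26 for all genes. Under TMM scaling AM ratios rose by 0.23, and all genes then split into 6.06% higher and 3.88% lower.

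Other AM members showed a mixed picture. Zbp1, a sensor of Z-form nucleic acids, stood at 13.2 and 22.3 CPM (0.72), Bst2 at 66.4 and 85.7 (0.36) and Ddx58, the RNA sensor RIG-I, at 19.7 and 24.5 (0.30). Trim30a was at 66.6 and 45.0 CPM (-0.56), Ifitm2 at 21.9 and 18.9 (-0.21) and Gbp7 at 33.0 and 29.9 (-0.14). Cxcl10, under the floor, stood at 17.0 and 5.93 CPM (-1.38). Ifitm2 and Gbp7 turn positive when the TMM shift is added, whereas Trim30a does not.

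In SMs 27 of 33 members had a positive ratio and the median was 0.35 against -0.02 for all genes. Without the cluster led by S100a8 and S100a9 this was 17 of 29 members, with a median of 0.07 against -0.03. Of the 33, 5 (Ifit2, Ifi44, Oasl2, Oas3 and Dhx58) reached 20 CPM in Zeb2KO alone and so had to be positive. Of the 28 that reached it in both libraries 22 were positive and 2 (Rtp4 and Ifitm2) were called higher, against 0.951% of all genes, with medians of 0.29 and -0.03, and without the cluster 16 of 28 were positive, with a median of 0.06. Ifi44, Rtp4, Oasl2, Oas3 and Ifitm2 were called higher (5 of 33, against 2.31% of all 6180 genes) and 0 were called lower (0.825%). Oas3 rose from 1.45 to 24.4 CPM (3.38), Oasl2 from 3.37 to 29.3 (2.79) and Ifi44 from 7.23 to 24.4 (1.63). Ifitm2 rose from 73.1 to 190 CPM (1.36) and Rtp4, an inhibitor of viral RNA that was named after its call was seen, from 31.8 to 77.8 (1.26). Lowest were Cxcl10 with 172 and 128 CPM (-0.42), Ifitm6 with 31.0 and 23.0 (-0.42) and Gbp3 with 39.5 and 30.4 (-0.37).

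Of these 5 calls 4 were lost without 1 cluster in the SM libraries, whose cell type was not settled. It was led by S100a8, S100a9, Camp and Ngp and held 706 Zeb2KO cells (23.4%) but 15 WT cells, and its score list level was 1411 CPM against 513 in the other Zeb2KO cells. Its neutrophil list summed to 910 CPM against 24.2, its monocyte list to 543 against 129 and its SM list to 11360 against 26655. The general macrophage markers were at 7015 CPM in the cluster and 6805 in the rest, and the part of these markers in the result was not tested. The 15 WT cells of the cluster had a neutrophil list level of 56972 CPM and a score list level of 279. Without the cluster Ifitm2 alone was called higher (196 CPM, 1.43) and Cxcl10 was called lower (-1.02), against 1.40% and 0.799% of all genes. Oas3 (2.11) and Oasl2 (1.46) then had ratios above 1 but stood under 20 CPM, while Rtp4 (0.99) and Ifi44 (0.55) were under 1. Irf7 was then at -0.23, Herc6 at -0.08, Ifit3b at -0.04, Ifih1 at -0.01 and Gbp7 at -0.29.

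The 5 tissue pairs were then taken as replicates of the loss of ZEB2, with tissue as a block, in edgeR's quasi-likelihood test with Benjamini-Hochberg adjustment over all 14065 genes tested. No gene passed an adjusted p of 0.05, member or not (0.0% of all genes), while 1589 genes (11.3%) and 17 of 44 members, 16 higher and 1 lower, had an unadjusted p under 0.05. DESeq2 on the same design called 362 of 20158 genes with a p-value (1.80%) and 6 of 44 members: Isg15, Isg20, Oas3, Ddx58 and Igtp higher, and Gbp3 lower. Only part of these 20158 genes were given an adjusted p, so the share among those was above 1.80%. The median fitted log2 change was 0.57 for members and -0.01 for all genes. Without the microglia pair the member median was 0.27 and 11 members had an unadjusted p under 0.05, and without the SM pair these were 0.58 and 11. Both tests weigh a change against the spread between tissues, estimated in part from all genes. A gene that changed in 1 tissue alone is therefore unlikely to pass.

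In direction alone, 13 members, Isg15, Isg20, Ifi35, Rtp4, Xaf1, Oasl1, Oasl2, Oas1a, Oas3, Ddx58, Irf9, Usp18 and Igtp, were higher in all 5 Zeb2KO libraries, and Gbp3 was lower in all 5. Among the 14065 genes tested 4.82% were higher and 7.32% lower in all 5 pairs. Direction takes no account of counting error, and some of these differences had overlapping counting intervals. Among them were Gbp3 in AMs (44 UMIs in each library), Rtp4 in KCs (413 and 417 CPM) and Irf9 in CMs and AMs. The same held for Oasl1 in AMs and Ifi35 in SMs. Irf9, Ddx58 and Oas3 turned under other choices. Irf9 was at -0.03 in SMs without the cluster led by S100a8 and S100a9 and at -0.0032 in CMs without that led by Hp and Mmp8. With the Nr1h3fl/fl library as WT, Ddx58 was at -0.26 and Oas3 at -0.0024 in KCs.

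Isg20 had the lowest p among members (edgeR adjusted p = 0.15, DESeq2 adjusted p = 2.76e-06). Its WT and Zeb2KO levels were 3.73 and 8.03 CPM in microglia, 4.42 and 9.60 in CMs, 6.66 and 23.1 in KCs, 1.89 and 6.12 in AMs and 2.77 and 6.15 in SMs. It was thus a low gene that was more than 2-fold higher in each of the 5 pairs, with a fitted log2 change of 1.44 ± 0.18 (SE). Without 1 cluster it was under 2-fold in 3 of them: 1.45-fold in microglia without the cluster led by Ifit1bl1 and Rsad2 (3.33 and 4.83 CPM), 1.44-fold in CMs without that led by Hp and Mmp8 (4.44 and 6.39 CPM), and 1.72-fold in SMs without that led by S100a8 and S100a9 (2.79 and 4.79 CPM). Over the alternatives of the edgeR fit the lowest member adjusted p ranged from 0.0477 to 1.0, and Isg20 passed once, with the second WT liver library added.

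Next in order of p came Igtp, a GTPase of intracellular defence, with a fitted change of 0.62 ± 0.09 (edgeR adjusted p = 0.174, DESeq2 0.000432). It was higher by 0.32 to 0.69 in every pair. Ddx58 changed by 0.58 ± 0.11 (edgeR adjusted p = 0.204, DESeq2 0.00871) and by 0.30 to 0.85 in single pairs, but the 2 WT liver libraries differed in it by 0.58. Isg15 changed by 0.79 ± 0.18 (edgeR adjusted p = 0.232, DESeq2 0.00753), and Gbp3 had a fitted change of -0.53 ± 0.12 (edgeR adjusted p = 0.239, DESeq2 0.0296). Without the cluster led by S100a8 and S100a9 the Isg15 ratio in SMs was 0.21, against 0.76 with all kept cells. In CMs it was 0.17 without the cluster led by Hp and Mmp8 and 0.34 without that led by Iigp1 and Cxcl9, against 0.37. In microglia it was 1.25 without the cluster led by Ifit1bl1 and Rsad2, against 1.42. Igtp and Isg15 are named here for their p-values, after these were seen.

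Large but uneven changes had wide errors. Oas3 had a fitted log2 change of 2.67 ± 0.77 (edgeR adjusted p = 0.303, DESeq2 0.0487) and Oasl2 of 2.36 ± 0.88 (edgeR adjusted p = 0.404, DESeq2 0.156). The summed OAS and Mx group was 6.67-fold higher in microglia, 6.59-fold in AMs, 3.09-fold in SMs, 1.38-fold in CMs and 1.26-fold in KCs. Without the splenic cluster led by S100a8 and S100a9 the SM fold was 1.63 (33.5 and 54.5 CPM). With all kept cells the levels of the group were 16.0 and 107 CPM in microglia but 382 and 481 in KCs, so the folds were smallest where the WT level was highest. For KCs the fold against the Nr1h3fl/fl library was 1.06.

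**Figure D3:**
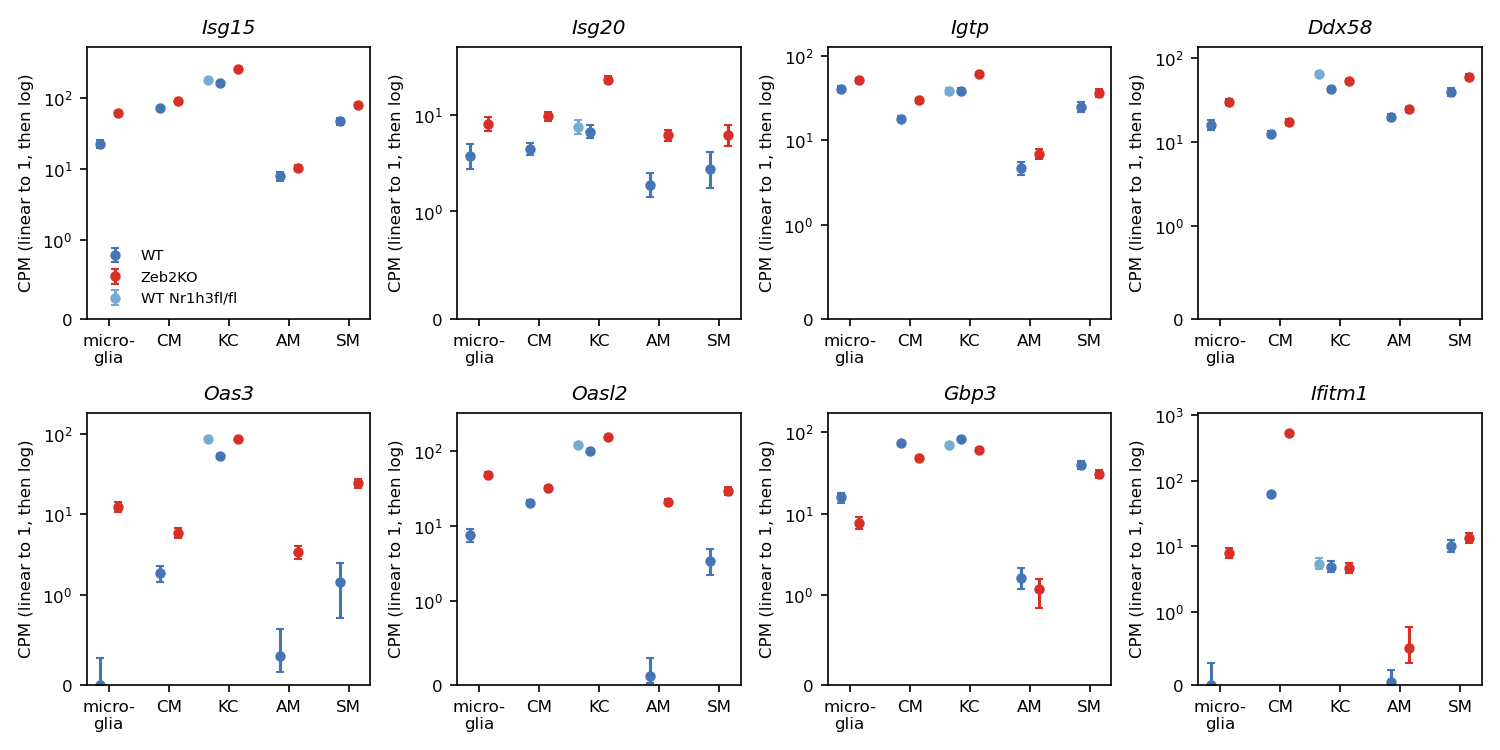
Levels of 8 ISGs in CPM (axis linear up to 1, log above), with 1 point per library and exact Poisson intervals of 95% (counting error only). With all kept cells Isg20 is more than 2-fold higher in each Zeb2KO library (under 2-fold in microglia, CMs and SMs when a cluster named in the text is left out). Gbp3 is lower in each, with overlapping intervals in AMs, and Oasl2 in AMs goes from 0.109 to 21 CPM.

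The levels of the main genes named above are given here in every library, by role, always in the order WT and Zeb2KO, with the Nr1h3fl/fl library between them in KCs. Among general ISGs, Ifi27l2a stood at 2227, 2644 and 1944 CPM in KCs (WT, Nr1h3fl/fl and Zeb2KO), 37.1 and 152 in microglia (WT and Zeb2KO), 566 and 604 in SMs, 587 and 875 in CMs and 34.7 and 39.2 in AMs. Bst2 stood at 703, 682 and 631 CPM in KCs, 176 and 275 in microglia, 159.5 and 204 in SMs, 326 and 377 in CMs and 66.4 and 85.7 in AMs. It was higher in Zeb2KO in every tissue but KCs. Trim30a, a modulator of innate signalling, was at 223, 345 and 195 CPM in KCs, 76.6 and 94.2 in microglia, 275 and 254 in SMs, 71.9 and 79.4 in CMs and 66.6 and 45.0 in AMs. Ifit3, which binds foreign RNA, was at 135, 113 and 123 CPM in KCs, 11.7 and 51.2 in microglia, 22.5 and 33.2 in SMs, 15.1 and 15.3 in CMs and 0.146 and 0.751 in AMs. Only microglia had more than a 2-fold gap among pairs at 20 CPM or more. Ifi44 was at 18.7, 26.7 and 38.2 CPM in KCs, 0 and 2.95 in microglia, 7.23 and 24.4 in SMs, 0.349 and 0.413 in CMs and 0 and 0 in AMs. It had no UMI in either AM library or in microglia WT. Isg15 was at 163, 180.3 and 257 CPM in KCs, 22.7 and 62.6 in microglia, 47.1 and 80.4 in SMs, 71.8 and 92.8 in CMs and 7.94 and 10.5 in AMs. Each Zeb2KO library was above its WT partner.

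In the OAS family, which senses double-stranded RNA, Oasl2 was at 97.2, 119 and 153 CPM in KCs, 7.54 and 47.8 in microglia, 3.37 and 29.3 in SMs, 20.4 and 32.0 in CMs and 0.109 and 21 in AMs. The Zeb2KO level was the higher one in each pair. Oas3 was at 53.3, 85.3 and 85.2 CPM in KCs, 0 and 12.3 in microglia, 1.45 and 24.4 in SMs, 1.86 and 5.89 in CMs and 0.328 and 3.41 in AMs. Oas1a was at 87.0, 68.4 and 93.8 CPM in KCs, 5.35 and 16.8 in microglia, 11.6 and 18.4 in SMs, 29.7 and 31.1 in CMs and 4.77 and 12.5 in AMs. In KCs the Zeb2KO level of Oas3 equalled that of the Nr1h3fl/fl library within counting error, and that of Oas1a lay above both WT levels. Among sensors, Zbp1 was at 97.7, 72.9 and 91.1 CPM in KCs, 2.51 and 17.8 in microglia, 6.99 and 17.5 in SMs, 23.2 and 32.2 in CMs and 13.2 and 22.3 in AMs. Ddx58 was at 42.6, 64.2 and 53.6 CPM in KCs, 16.1 and 30 in microglia, 39.6 and 59.6 in SMs, 12.4 and 17.4 in CMs and 19.7 and 24.5 in AMs. For Ddx58 the KC Zeb2KO level lay between the 2 WT levels.

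Irf7, which amplifies the interferon response, was at 571, 519.5 and 452 CPM in KCs, 8.51 and 21.4 in microglia, 47.6 and 60.2 in SMs, 16.4 and 28.9 in CMs and 1.68 and 4.59 in AMs. It was lower in Zeb2KO in KCs and higher in the other pairs. Irf9, a DNA-binding factor of the type I interferon signal, was at 51.0, 58.6 and 69.0 CPM in KCs, 50.7 and 66.5 in microglia, 54.5 and 63.2 in SMs, 32.4 and 33.7 in CMs and 11.1 and 11.7 in AMs. Its gaps within pairs were small. Cxcl10 was at 66.8, 64.2 and 61.9 CPM in KCs, 54.2 and 80.3 in microglia, 172 and 128 in SMs, 110.4 and 130.0 in CMs and 17.0 and 5.93 in AMs. It was higher in Zeb2KO in microglia and CMs and lower in the other pairs.

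Of the IFITM genes, Ifitm3 was at 3459, 3340 and 1996 CPM in KCs, 33.3 and 69.6 in microglia, 379 and 377 in SMs, 730.1 and 879.7 in CMs and 8.85 and 15.8 in AMs. Ifitm2 was at 965, 1013 and 727 CPM in KCs, 4.46 and 12.8 in microglia, 73.1 and 189.7 in SMs, 1316 and 1606 in CMs and 21.9 and 18.9 in AMs. Both were lower in Zeb2KO KCs than in either WT liver library. Ifitm1 was at 4.93, 5.48 and 4.72 CPM in KCs, 0 and 7.98 in microglia, 10.2 and 13.5 in SMs, 63.7 and 529.8 in CMs and 0.0364 and 0.510 in AMs. The CM Zeb2KO library stood apart from all others. Ifitm6 was at 99.8, 95.8 and 52.5 CPM in KCs, 0.0811 and 0 in microglia, 31.0 and 23.0 in SMs, 9.59 and 14.6 in CMs and 1.13 and 1.80 in AMs. It was at or near 0 in microglia.

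Among GTPases, Gbp3 was at 83.0, 69.1 and 60.7 CPM in KCs, 15.8 and 7.74 in microglia, 39.5 and 30.4 in SMs, 73.2 and 48.3 in CMs and 1.60 and 1.18 in AMs. Gbp7 was at 78.0, 94.0 and 59.5 CPM in KCs, 46.2 and 21.4 in microglia, 51.0 and 51.6 in SMs, 64.3 and 62.6 in CMs and 33.0 and 29.9 in AMs. Gbp3 was lower in Zeb2KO in each pair, in AMs with overlapping counting intervals. Irgm1, which acts in autophagy of intracellular microbes, was at 71.4, 62.3 and 76.4 CPM in KCs, 27.0 and 30.9 in microglia, 47.6 and 72.5 in SMs, 14.8 and 23.9 in CMs and 13.0 and 9.63 in AMs. Iigp1 was at 92.5, 86.9 and 44.9 CPM in KCs, 0.243 and 0.827 in microglia, 56.6 and 71.7 in SMs, 6.10 and 37.7 in CMs and 0.109 and 0.0268 in AMs. Its KC Zeb2KO level lay below both WT levels. Igtp was at 38.8, 38.3 and 60.4 CPM in KCs, 40.8 and 51.2 in microglia, 24.8 and 36.7 in SMs, 18 and 29.7 in CMs and 4.66 and 6.92 in AMs. It was higher in Zeb2KO in each pair.

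The other members are given by their lowest and highest library. Of the IFIT genes, Ifit1 ran from 0.805 to 49.0 CPM, Ifit2 from 0.215 to 59.8 and Ifit3b from 0.0729 to 34.2. Rsad2, which encodes viperin, ran from 0.215 to 112 CPM, and its neighbour Cmpk2, a nucleotide kinase, from 0.188 to 36.0. These 5 genes were lowest in an AM library and highest in the Nr1h3fl/fl library, except Ifit3b, which was highest in SM Zeb2KO. Ifi35 ran from 31.7 CPM in SM WT to 93.6 in KC Zeb2KO, Herc6 from 8.88 to 53.9, Xaf1 from 3.57 to 98.6, Rtp4 from 1.57 to 417 and Parp14 from 15.3 to 156. In the OAS and Mx group, Oasl1 ran from 0.291 to 46.6 CPM, Oas1g from 0.255 to 36.3, Oas2 from 0.243 to 86.4 and Mx1, a dynamin-like antiviral GTPase, from 0.0729 to 21.1. All 4 were highest in a KC library. The sensors Ifih1 and Dhx58 ran from 10.0 to 57.8 and from 8.72 to 58.0 CPM, and the signal factors Stat2 and Usp18 from 9.40 to 66.0 and from 0.0729 to 42.0. The GTPase genes Ifi47 and Gbp2 were lowest in microglia WT, at 0.973 and 6.81 CPM, and highest in KC WT (100.4) and SM WT (59.2).

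Of the wider interferon pathway, 53 genes were measured in the same libraries. Of the 14 ligand genes 9 had 0 UMIs in every library, and none reached 20 CPM. Ifnb1, the gene of interferon beta, went from 1 UMI in 1 microglia WT cell (0.0811 CPM) to 60 UMIs in 21 Zeb2KO cells (3.54 CPM), a ratio of 43.7 with a counting interval of 7.55 to 1755. Of these 21 cells 9 were high-scoring by the cell score given below. In CMs Ifnb1 stood at 1.54 CPM (32 WT cells) and 0.825 CPM (13 Zeb2KO cells), and in KCs, AMs and SMs it was at 0.

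No receptor gene was called. Ifnar1 ranged from 10.1 CPM in AM WT to 67.8 in CM WT, with ratios from -0.08 in CMs to 0.60 in AMs, and Ifnar2 from 37.1 to 327 CPM, with ratios from -0.15 in SMs to 0.73 in AMs. Ifnlr1, a receptor gene of the lambda interferons, had 0 UMIs in microglia WT and 24 in Zeb2KO (1.42 CPM). The kinase gene Jak2 was higher in all 5 Zeb2KO libraries, by 0.79 to 1.23. It was the 1 pathway gene called higher (in KCs, against 3.36% of all genes there), with 14.2 and 34.7 CPM. The Nr1h3fl/fl library stood at 20.7, a ratio of 0.72, so the call was lost against it. Across the pairs Jak2 changed by 1.01 ± 0.10 (edgeR adjusted p = 0.101, DESeq2 2.59e-09).

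Among transcription factors, Irf1 fell in AMs from 23.3 to 11 CPM (-1.02), the 1 pathway gene called lower (against 7.33% of all genes in AMs). The TMM shift of 0.23 ends this call. Of the 39 pathway genes among the 14065 tested, 3 (Jak2, Tmem173 and Socs1) were higher in all 5 pairs and 4 (Irf8, Tlr7, Unc93b1 and Pias1) lower, or 7.69% and 10.3% against 4.82% and 7.32% of all genes. Irf8 had a fitted change of -0.40 ± 0.12 (edgeR adjusted p = 0.304, DESeq2 0.0397). DESeq2 called Jak2 and Irf8 of the 53 pathway genes, against at least 1.80% of all genes.

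To ask whether the ISG level lay in all cells or in some, each cell was thinned at random to 1500 UMIs and scored by how many different genes of the score list had a UMI. The 20 genes of the score list are Ifit1, Ifit2, Ifit3, Ifit3b, Isg15, Rsad2, Irf7, Usp18, Oasl1, Oasl2, Oas1a, Oas2, Oas3, Mx1, Ifi44, Cmpk2, Rtp4, Xaf1, Zbp1 and Cxcl10. A cell with at least 4 of them was called high-scoring. A score is a range and not a cell type, and many cells lay next to the limit (in KC WT 821 cells at 3 and 491 at 4, in microglia Zeb2KO 68 and 27). Intervals of shares are exact Clopper-Pearson intervals and cover counting error only.

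High-scoring microglia were 0.601% of WT cells (17 of 2830, interval 0.350% to 0.960%) and 2.78% of Zeb2KO cells (90 of 3243, 2.24% to 3.4%). In SMs they were 0.913% (22 cells) and 3.35% (83 cells), and in CMs 1.24% (54 cells) and 1.84% (71 cells). AMs had 3 and 7 such cells (0.0432% and 0.112%). The ratio of the shares was 4.62 in microglia (2.76 to 7.74), 3.67 in SMs (2.30 to 5.86), 1.5 in CMs (1.04 to 2.10) and 2.59 in AMs (0.671 to 10.0), so in AMs no difference was detectable at this depth. With a limit of 6 genes in place of 4 the CM ratio turned to 0.750 and the SM ratio was 2.04. Of SM cells, 841 in WT and 543 in Zeb2KO were too shallow to score.

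In KCs high-scoring cells were 22.7% in WT (918 cells), 23.2% in the Nr1h3fl/fl library (816) and 27.6% in Zeb2KO (1079). The ratio was 1.22 against WT (1.13 to 1.31) and 1.02 between the 2 WT libraries (0.942 to 1.11). Barcodes left out as other cell types in the same libraries scored high in 11.7%, 20.2% and 14.1%, in the same order. In KC WT those left out as B cells held 3919 CPM of the KC gene Clec4f, against 6054 in the KCs. They held 1260 CPM of the B cell gene Cd79a, against 1.77. Of these barcodes 8.39% scored high, at a median of 3548 UMIs against 5366 in KCs. They thus carried KC and B cell transcripts together. No doublet caller was run, and the part of such barcodes in the KC share was not tested. Unthinned, the KC shares were 76.9%, 72.9% and 80.5%, those of microglia 1.84% and 9.77%, those of CMs 16.4% and 23.5%, those of AMs 0.172% and 0.864% and those of SMs 3.23% and 12.3%.

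In every library the larger part of score list UMIs lay outside the high-scoring cells. High-scoring cells held 20.9% of score list UMIs in microglia WT and 43.7% in Zeb2KO, and 36.7% and 45.7% in KCs. Outside them the score list still stood at 152 CPM in microglia WT and at 303 in Zeb2KO. In SMs the same levels were 438 and 581 CPM. Without the cluster led by S100a8 and S100a9 the SM shares were 0.918% and 1.10% and their ratio 1.20. Without the brain cluster the microglial shares were 0.319% and 1.84%, with a ratio of 5.76.

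**Figure D4:**
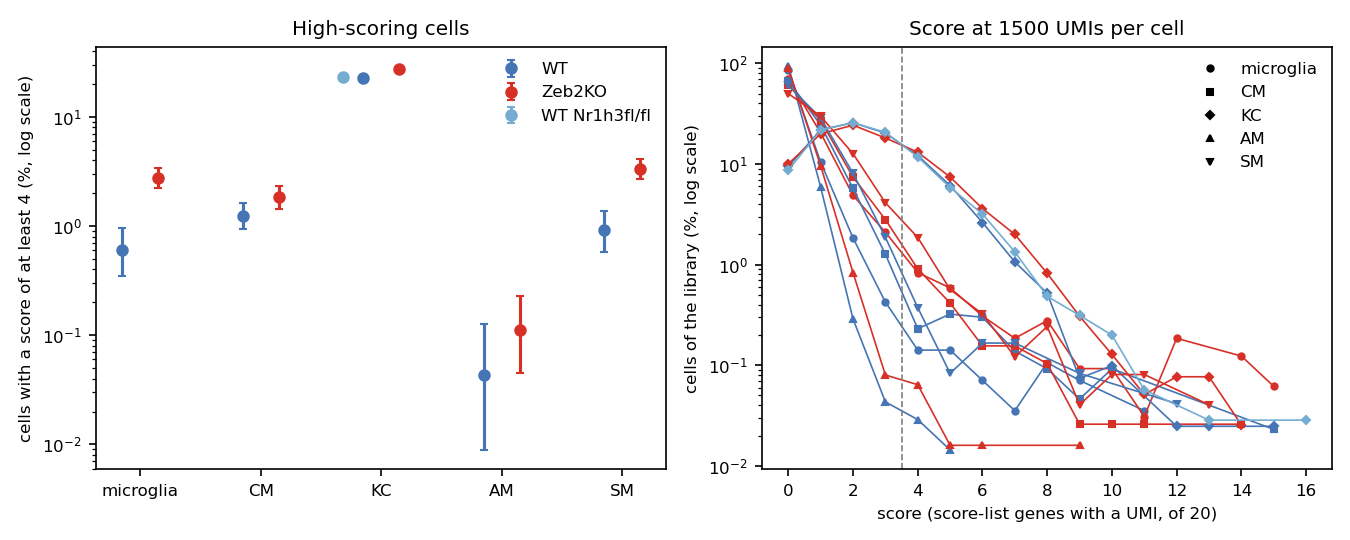
Share of cells with a score of at least 4 in each library with exact intervals of 95% (left, log axis), and share of cells at each score after thinning to 1500 UMIs (right, log axis), where scores without cells are left out and the dashed line marks the limit. Symbols on the right give the tissue and colours are as on the left. KC libraries lie between 22.7% and 27.6%, and the microglia pair between 0.601% and 2.78%.

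The score chose these cells, so only genes it did not use are described in them. In the 7 libraries with at least 50 high-scoring cells (all but WT microglia, both AM libraries and SM WT), 19 of the 24 members outside the score list reached 20 CPM on the higher side in every library, with a median log2 ratio of 1.33, against -0.02 over 3736 genes. Several passed through the high-scoring cells alone, so their direction was set by the limit. With no limit 21 of the 24 were higher in high-scoring than in other cells in all 7 libraries, and Ifitm1, Ifitm2 and Ifitm6 were not. The 7 members at 20 CPM or more on both sides in every library (Ifi35, Ifi27l2a, Bst2, Trim30a, Parp14, Irf9 and Ifitm3) were higher in all 7, by 0.03 or more. High-scoring cells were deeper than the others in 6 of the 7 libraries. Median UMIs were 10807 and 9219.5 in CM WT, 3644 and 3188.5 in SM Zeb2KO, 5314 and 4950 in microglia Zeb2KO and 5864 and 5865 in KC Zeb2KO.

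The 10 genes outside the score list with the highest median ratio were Gm4955 (3.08), Pydc4 (2.65), Phf11b (2.53), Mnda (2.48), Phf11d (2.44), Slfn1 (2.44), Ifi47 (2.29), Ms4a4c (2.27), Herc6 (2.10) and Ifi205 (2.02). Of these, Ifi47 and Herc6 are members. Ifi205 and Mnda belong to the family of HIN-200 DNA sensors, and Slfn1 to the Schlafen family. Among the top 50 of the 3736 genes ranked 15 were members, of 19 members ranked. Genes could pass the limit of 20 CPM through the high-scoring cells alone, so these ranks were in part set by that limit.

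The size of the ratios differed between tissues. Ifi47, a GTPase, stood at 111 CPM in high-scoring and 0.609 in other microglia Zeb2KO cells (6.12), but at 136 and 89.6 CPM in KC WT (0.60). Isg20 stood at 148 and 3.72 CPM in microglia Zeb2KO and at 42.7 and 15.8 in KC Zeb2KO. Its ratio in KCs was 1.38 in Zeb2KO, 0.34 in WT and 0.37 in the Nr1h3fl/fl library. Ifitm1 and Ifitm2 did not follow the score, with ratios from -3.21 to 1.10 and from -0.15 to 0.29.

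**Figure D5:**
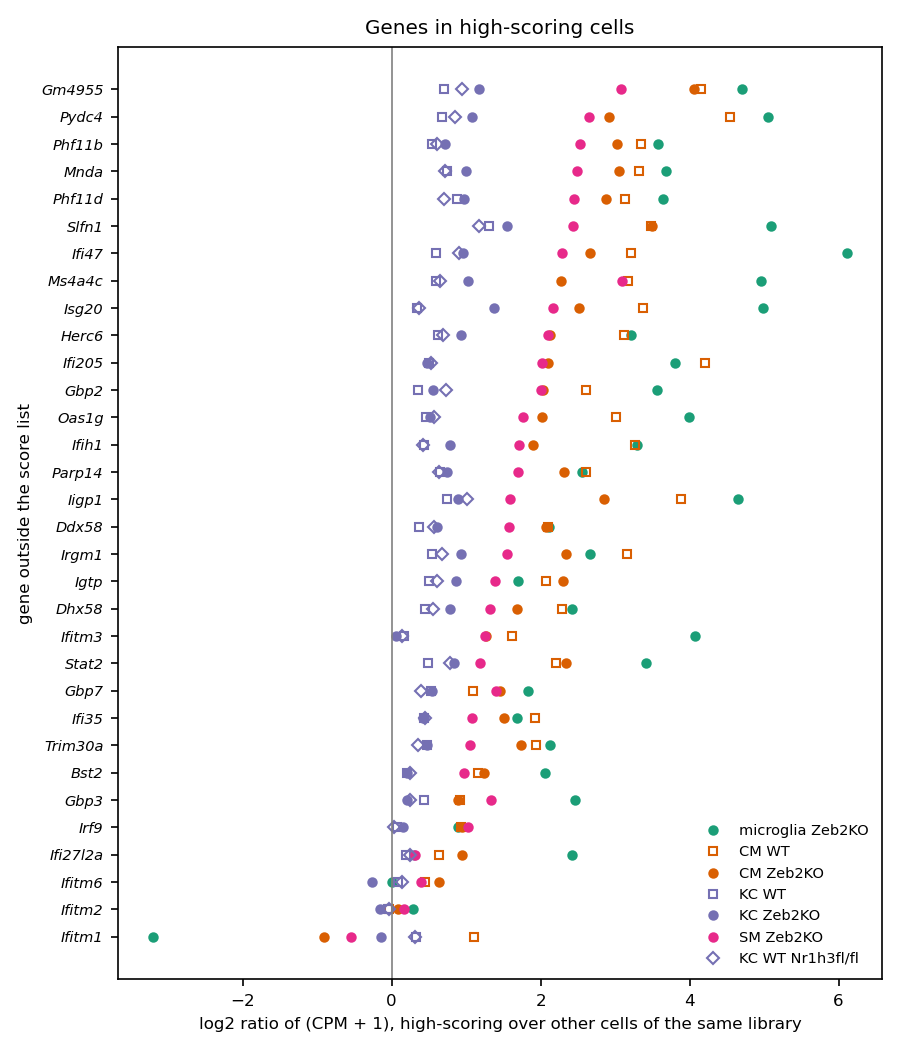
Log2 ratio of (CPM + 1) between high-scoring and other cells of the same library, for genes that the score did not use (rows), with 1 point per library (filled for Zeb2KO, open for WT). Microglia Zeb2KO points lie farthest to the right for most genes, KC points nearest to 0, and Ifitm1 is negative in 4 of 7 libraries.

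Zeb2KO libraries hold several cell groups, so the clusters that were at least 9 times as frequent in Zeb2KO as in WT were set against the others. In KCs these clusters held 76.3% of Zeb2KO cells. Isg20 was at 27.7 CPM in them, at 9.50 in the other Zeb2KO cells and at 6.66 in WT, and Isg15 at 285, 176 and 163. High-scoring cells made up 31.7%, 14.5% and 22.7%. Ifitm3 was lower than WT in both parts of the library, at 1897 and 2284 CPM against 3459, and so was Iigp1, at 41.9 and 53.8 against 92.5.

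In SMs such clusters held 75.9% of Zeb2KO cells, with Oas3 at 27.6 CPM, against 11.4 in the other Zeb2KO cells and 1.45 in WT. Oasl2 was at 34.1, 9.86 and 3.37 CPM. The cluster led by S100a8 and S100a9 is among these clusters. All SM Zeb2KO cells outside that cluster together stood at 9.58 CPM of Oas3, below the 11.4 given above, and at 11.1 of Oasl2, near 9.86. The contrast within the Zeb2KO library thus rests on that cluster, wholly for Oas3 and largely for Oasl2. In CMs the clusters frequent in Zeb2KO held 20.8% of cells, with Isg15 at 158, 75.7 and 71.8 CPM and Isg20 at 22.7, 6.18 and 4.42. Most of these cells belong to the cluster led by Hp and Mmp8. All other CM Zeb2KO cells together stood at 79.9 CPM of Isg15 and 6.39 of Isg20. In AMs such clusters held 91.2%, and Oasl2 was at 21.7 CPM there and at 13.9 in the other Zeb2KO cells, against 0.109 in WT. The members were left out of the genes used for clustering but related genes were not, so these values are a description.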

How the data were processed

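Single macs of 5 tissues were measured in 11 libraries. The authors deposited raw UMI counts per gene and cell barcode, made with Cell Ranger on mm10. Cells beyond 3 median absolute deviations of their library in UMIs, genes or mitochondrial share were removed. Cells were clustered per tissue without the members (scanpy 1.11.5, leidenalg 0.10.2). A cluster was left out when markers of another cell type were raised and detected in it and general macrophage markers lay below those of the other cells. It also had to hold under 25% of each library. The splenic cluster led by S100a8, S100a9, Camp and Ngp did not meet this rule and was kept. No doublet caller was run. Counts were summed per library. Each library is 1 group, so intervals (exact Poisson or Clopper-Pearson, 95%) cover counting error only. The ratio within a tissue used a pseudocount of 1 CPM and a floor of 20 CPM. The test across the 5 tissue pairs was edgeR 4.0.16 (quasi-likelihood, tissue as block, Benjamini-Hochberg adjustment), with DESeq2 1.42.0 as an alternative, in R 4.3.3. The scripts were tested on simulated data. The members and lists were chosen with earlier results of these data known. Genes given in full were, per tissue, the 3 members with the highest and the 3 with the lowest ratio at 20 CPM or more, and the 2 most abundant members of each role group (1 for the chemokine). Others are named as chosen after their values were seen. Alternatives were other floors, pseudocounts, TMM factors, cell filters, score limits, thinning depths, the second WT liver library, other designs and leaving out each tissue or single clusters. A gene of the pathway list is not reported here.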

Additional observations from a re-analysis of the deposited data

Results flagged for a closer look

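Iigp1 had opposite calls in 2 tissues, with a log2 ratio of 2.45 in CMs and -1.03 in KCs. Each side is 1 library, so the difference was not tested. The KC value was -0.94 against the Nr1h3fl/fl library, and the CM value was 1.71 without the cluster led by Iigp1 and Cxcl9.

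In cells left out of the comparisons, fibroblasts of CM Zeb2KO had a score list level of 318 CPM, above 209 CPM in fibroblasts of CM WT, which rest on 158 and 174 cells.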

How the results depend on the processing

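Counts of called members depended on the floor and, in CMs and SMs, on single clusters. With a floor of 5 CPM microglia had 19 members called higher and AMs 3 higher and 1 lower. With 50 CPM microglia had 4 higher and 0 lower, CMs 1 higher, KCs 0 higher, AMs 0 higher and SMs 2 higher. With 20 CPM required in both libraries, a choice made after seeing the data, microglia had 3 higher, CMs 1, KCs 0, AMs 0 and SMs 2. Of all genes held to that limit 2.12%, 0.555%, 1.45%, 2.49% and 0.951% were higher, in the same order. A pseudocount of 5 CPM gave 5 higher and 0 lower in microglia and 0 lower in KCs. TMM factors gave 0 lower in microglia (against 3.62% of all genes). KCs had 0 lower with all cells that passed the filter, with all barcodes, and with the Nr1h3fl/fl library as WT. For the floors of 5 and 50 CPM, the pseudocount of 5 CPM and the other cell sets the share of all genes called is not given. Those counts therefore lack a background. Without the cluster led by Hp and Mmp8, or that led by Iigp1 and Cxcl9, CMs had 1 member called higher. Without the cluster led by S100a8 and S100a9 SMs had 1 higher and 1 lower, and a share ratio of 1.20. Across the pairs DESeq2 called 6 members and the fit of 11 libraries 1. The tissue block is the only pairing in the labels, which give 1 replicate per group. Without a replicate block 0 members were called, and leaving out each tissue pair gave 0 to 0, while the median member change ran from 0.27 (without microglia) to 0.72 (without KCs). The cause of these changes was not tested.

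Under TMM the module log2 ratio was 0.94 for microglia, 0.415 for CMs, -0.31 for KCs and 0.37 for AMs, and it reversed to -0.014 for the pair of WT liver libraries. The score list alone gave 1.45 for microglia, 0.35 for CMs, 0.84 for AMs and 0.51 for SMs. It reversed the KC value to 0.067 and that of the WT liver pair to -0.024. With all filtered cells CMs had 0.44. In the analyses without a cluster, added after seeing the data, the module ratio was 0.75 for microglia, 0.31 for CMs without the cluster led by Hp and Mmp8, 0.43 for CMs without that led by Iigp1 and Cxcl9, and 0.062 for SMs. The share ratio in CMs was 0.750 with at least 6 genes (reversed). In KCs it was 1.06 with at least 3 genes, 1.59 with 6, 1.37 at 1000 UMIs, 1.12 at 2000 UMIs and 1.05 unthinned. With at least 6 genes it was 2.04 in SMs and 1.27 in the WT liver pair, which stood at 0.948 unthinned (reversed). In all, 336 of 475 recomputed values were the same as the main ones by set rules. Counts of called members had to be equal or of similar size. Single ratios and adjusted p-values had to keep their direction and side of the threshold, and other values had to move less than their error.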
